A study of Mus musculus with 10 samples.

Results

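The nuclear-encoded subunits of the mitochondrial respiratory chain were examined in the adult mouse brain after exposure to ethanol before and shortly after birth. They comprised 82 of the 19938 genes measured on the arrays. A gene was taken if its symbol began with Ndufa, Ndufb, Ndufc, Ndufs, Ndufv, Uqcr or Atp5, ran through the cytochrome c oxidase symbols Cox4i to Cox8, or was Sdha, Sdhb, Sdhc, Sdhd or Cyc1. Ndufaf assembly factors, pseudogenes and Cox8b were left out, and each gene was represented by its probe set with the highest mean over all arrays. The 82 genes fell into complex I (34), complex II (4), complex III (9), complex IV (18) and complex V (17). Ndufb1, Ndufb4 and Cox7c had no probe set with a single gene symbol and were not analysed here. All 82 genes entered the comparisons, since no filter on low values was used.

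The respiratory chain sits in the inner mitochondrial membrane. Complex I and complex II pass electrons from NADH and succinate to ubiquinone, complex III passes them on to cytochrome c, and complex IV hands them to oxygen, while complexes I, III and IV pump protons whose return flow drives ATP synthesis in complex V. Most subunits are encoded in the nucleus, transcribed in step with each other in many tissues, and imported, and neurons depend on the chain for the ATP that restores ion gradients after firing.

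Whole brains were taken from male C57BL/6J offspring at postnatal day 70. The ethanol group had mothers that drank 10% ethanol in water through pregnancy and until postnatal day 10 of the pups, and the mothers of the control group drank water. Experiment 1 had 2 ethanol and 2 control arrays, each with the pooled RNA of 3 brains, and experiment 2 had 3 ethanol and 3 control arrays, each with the pooled RNA of 2 brains, 12 mice in each experiment. Pools hide the spread between animals, and whether pools shared litters is not stated, so the p-values speak only for differences among these pools.

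The arrays gave log2 expression values of 4.27 to 15.4, and they correlated with each other at 0.989 to 0.996 across probe sets. For every probe set the mean of experiment 1 equalled that of experiment 2 to within 5.83e-05 log2 units, so levels are set side by side only within an experiment. Values ran over a narrower range on the ethanol arrays. Averaged over arrays, their lower quartile was 0.047 higher than on the control arrays, their median 0.027 higher and their upper quartile differed by -0.035 log2 units. Across all genes the direction of the ethanol difference accordingly went with signal level, and the main counts of subunit genes are therefore given beside the genes in the highest quartile of mean signal, which held 58 of the 82. In whole brain, fewer cells of a type and less RNA per cell cannot be told apart.

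None of the 82 subunit genes passed the test for a difference between ethanol and control arrays over both experiments (limma, Benjamini-Hochberg adjusted p under 0.05), and the percentage called among all 19938 genes was also 0. Of the 82 genes, 62 had lower values on the ethanol arrays, with a median ethanol minus control difference of -0.040 log2 units and a range of -0.19 for Sdhd to 0.10 for Cox4i2. Among all genes 54.5% were lower, with a median of -0.009, but in the highest quartile of signal 78.7% were lower, with a median of -0.041. The subunit genes in that quartile had 48 of 58 lower (82.8%) and a median of -0.048. The share and median of the subunit genes were thus close to those of other genes of like signal. At an unadjusted p under 0.05, 4 subunit genes were lower (Sdhd, Ndufs1, Ndufa1 and Atp5pb), where 7.83% of all genes and 11.3% of those in the highest quartile were lower at that threshold. Cox4i2 alone of the 82 was higher at that threshold, which 4.77% of all genes and 0.502% of the highest quartile reached, and Cox4i2 itself was in the second-lowest quartile.

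**Figure D1:**
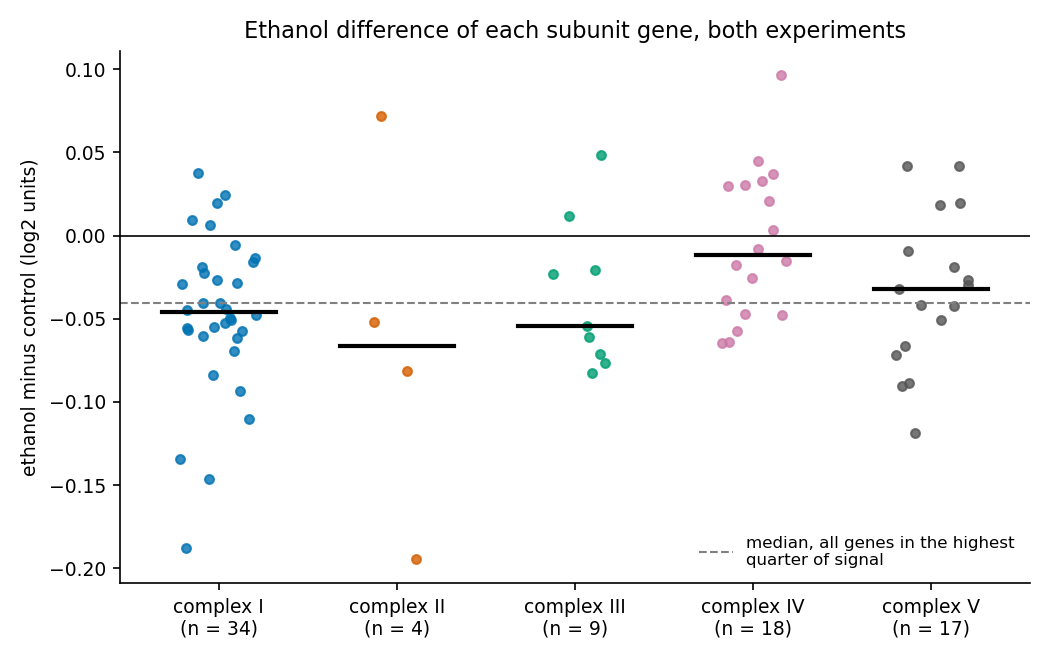
Ethanol minus control difference (log2 units) of each of the 82 subunit genes over both experiments, by complex. Each point is a gene, the bar is the median of the complex, and the dashed line is the median of all genes in the highest quartile of signal (-0.041). The medians of complexes I, II and III lie below that line, and those of IV and V above it.

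By complex, the genes of complex II had a median difference of -0.067 (3 of 4 lower), those of complex III -0.054 (7 of 9 lower) and those of complex I -0.046 (29 of 34 lower). Complex V had a median of -0.032 (13 of 17 lower) and complex IV -0.012 (10 of 18 lower). The range within every complex was wider than the gap between any pair of these medians, and the differences between complexes were not tested. With an array left out, the median of complex IV ran from -0.035 (without control replicate 2 of experiment 1) to 0.008 (without control replicate 1 of experiment 2). That of complex V ran from -0.060 (without ethanol replicate 2 of experiment 1) to -0.006 (without ethanol replicate 3 of experiment 2), and that of complex I from -0.070 (without control replicate 2 of experiment 1) to -0.031 (without ethanol replicate 3 of experiment 2). With each array centred on its median, 71 of the 82 genes were lower, with a median of -0.068 and complex medians of -0.094 (II) to -0.039 (IV). With quantile normalization 57 were lower, with a median of -0.017 and complex medians of -0.042 (II) to -0.010 (IV).

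The intervals limit how large a difference could have been missed. The 95% confidence interval of the ethanol difference held 0 for 77 of the 82 genes, with a median distance from estimate to bound of 0.104 log2 units. For 65 genes the whole interval lay within 0.2 log2 units of 0, a change of 14.9% upward. The lowest bound was -0.36 for Ndufa1, a change of -22.02% in level, and the highest was 0.24 for Uqcr11, a level higher by 18.2%. Only 2 genes had intervals within 0.1 log2 units of 0 on both sides.

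**Figure D2:**
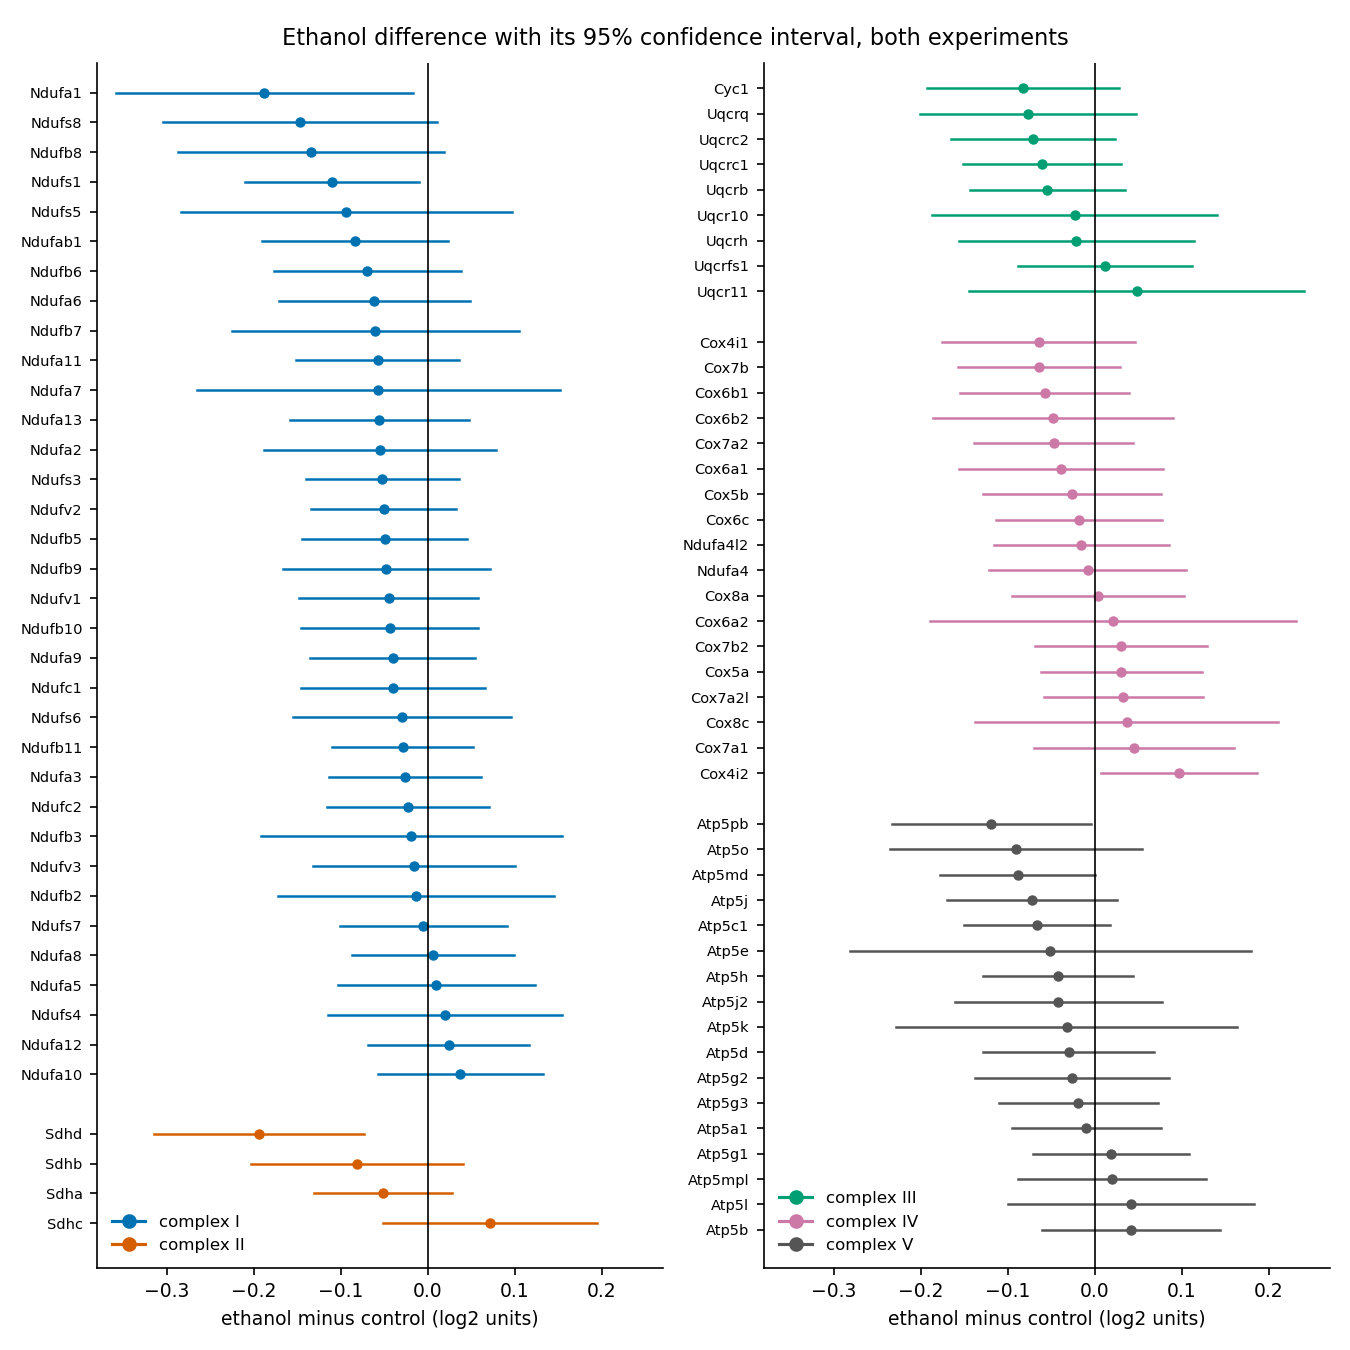
Ethanol minus control difference over both experiments (horizontal axis, log2 units) with its 95% confidence interval for each of the 82 subunit genes, sorted within complexes I and II (left) and III, IV and V (right). The intervals of 77 genes hold 0, and those of Sdhd, Ndufs1, Ndufa1, Atp5pb and Cox4i2 do not.

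Promoters are shown for 4 of the named genes because subunit genes of all complexes are textbook targets of the same transcription factors, NRF1, the ETS factor GABP and YY1. RefSeq windows from 250 bases before to 50 bases after the annotated start (GRCm38.p6) were matched for 66 of the 82 genes. All 4 printed windows hold a match and are not typical in this, since no core was found for more than 17 of the 66 genes. Searched on both strands were the letters GCGCATGC (NRF1 core), which is close to its own reverse complement so that both strands can match in overlap, CCGGAAG (ETS core) and AAGATGG (YY1 core). Capitals below mark a match on either strand, and each window is written 5′ to 3′ along the gene. Sdhd, which had the lowest difference, is at chr9:50603800-50604099 on the minus strand with an ETS match starting 46 bases before the start. Sdhb, its partner in complex II, is at chr4:140961021-140961320 on the plus strand with an NRF1 match 54 bases before the start and an ETS match from base 7 after it. Cox6a1 of complex IV is at chr5:115348909-115349208 on the minus strand, with overlapping NRF1 matches from 162 bases and an ETS match 16 bases before the start. Atp5pb of complex V is at chr3:105959214-105959513 on the minus strand, with a YY1 match 2 bases before the start.
Sdhd: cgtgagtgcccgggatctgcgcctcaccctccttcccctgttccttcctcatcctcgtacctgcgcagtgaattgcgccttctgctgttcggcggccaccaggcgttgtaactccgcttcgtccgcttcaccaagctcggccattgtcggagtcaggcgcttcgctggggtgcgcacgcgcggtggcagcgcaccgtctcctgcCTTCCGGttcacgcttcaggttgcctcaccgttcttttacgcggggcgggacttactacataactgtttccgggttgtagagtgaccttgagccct
Sdhb: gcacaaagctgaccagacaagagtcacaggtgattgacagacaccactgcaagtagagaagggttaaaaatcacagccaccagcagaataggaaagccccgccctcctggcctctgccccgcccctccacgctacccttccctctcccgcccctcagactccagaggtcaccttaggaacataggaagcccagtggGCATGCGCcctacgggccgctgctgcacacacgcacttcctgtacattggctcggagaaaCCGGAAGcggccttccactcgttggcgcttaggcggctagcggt
Cox6a1: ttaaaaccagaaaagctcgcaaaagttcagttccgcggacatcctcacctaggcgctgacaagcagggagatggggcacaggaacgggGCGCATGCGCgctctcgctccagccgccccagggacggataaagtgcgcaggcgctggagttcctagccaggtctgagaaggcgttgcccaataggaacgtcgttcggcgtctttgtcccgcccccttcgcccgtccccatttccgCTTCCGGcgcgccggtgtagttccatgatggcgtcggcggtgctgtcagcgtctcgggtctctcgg
Atp5pb: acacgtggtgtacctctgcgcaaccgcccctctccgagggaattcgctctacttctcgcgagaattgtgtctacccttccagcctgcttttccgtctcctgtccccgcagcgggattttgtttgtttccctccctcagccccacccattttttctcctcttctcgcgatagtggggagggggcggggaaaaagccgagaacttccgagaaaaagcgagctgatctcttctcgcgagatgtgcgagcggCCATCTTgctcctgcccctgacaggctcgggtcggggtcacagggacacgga

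Matches were counted per gene, in any of its windows. The NRF1 core was found for 10 of the 66 genes (15.2%), against 3.05% of all 27025 genes with a promoter window and 6.73% of those in the highest quartile of signal. The ETS core was found for 17 of 66 (25.8%), against 9.93% of all these genes and 19.5% in the highest quartile. For the YY1 core it was 10 of 66 (15.2%), against 7.28% and 9.26%. All 10 genes with the YY1 core belonged to complex I (7 of 31) or complex V (3 of 15). In complex I all 7 YY1 matches began after the annotated start, at bases 23 to 39. In complex V that of Atp5j2 began at base 24 after the start, and those of Atp5j and Atp5pb 88 and 2 bases before it. The median ethanol difference was -0.036 with and -0.041 without the NRF1 core, -0.052 with and -0.029 without the ETS core, and -0.040 both with and without the YY1 core. A match describes the letters of a window and is not evidence of binding.

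In complex I the 6 measured core subunits were all lower on the ethanol arrays, with a median of -0.052. The core class includes the subunits that carry the flavin and the iron-sulphur clusters of the complex, but not every core subunit carries one. Of the 28 accessory subunits 23 were lower, with a median of -0.042. Ndufs1, the largest iron-sulphur subunit of the matrix arm, had log2 levels of 10.33 and 10.40 on the experiment 1 ethanol arrays, against 10.39 and 10.37 on the matching controls. In experiment 2 Ndufs1 had 10.30, 10.23 and 10.32 on the ethanol arrays, against 10.48, 10.51 and 10.39 on the control arrays. The groups overlapped in experiment 1 and were apart in experiment 2, where all 3 ethanol arrays were below all 3 controls. In experiment 2 that pattern was found for 21 of the 82 subunit genes and 20 of the 58 in the highest quartile of signal. Among all genes 2334 of 19938 had it, and 1020 of the 4985 in that quartile. Genes named for a small p are more likely to show it, so it adds no separate support for them. The Ndufs1 difference was -0.11 ± 0.05 (SE, 5 ethanol and 5 control arrays; limma adjusted p = 0.375).

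Ndufa1, a small X-linked membrane subunit needed for assembly of the complex, had 8.54 and 8.34 on the experiment 1 ethanol arrays, against 8.37 and 8.59 on the matching controls. In experiment 2 Ndufa1 had 8.32, 8.38 and 8.24 on the ethanol arrays, against 8.80, 8.44 and 8.57 on the controls. As for Ndufs1, the arrays were interleaved in experiment 1 and separate in experiment 2. Its difference of -0.19 ± 0.08 (SE) was the lowest of the complex, had an adjusted p of 0.375, and was -0.12 without control replicate 1 of experiment 2. Ndufs8, an iron-sulphur subunit near the ubiquinone site, differed by -0.15 ± 0.07 (adjusted p = 0.430), its groups overlapped in both experiments, and without ethanol replicate 2 of experiment 1 the difference was -0.082. Ndufv1, which binds NADH and the flavin, differed by -0.045, and Ndufs7, which carries the last iron-sulphur cluster before ubiquinone, by -0.006. Ndufa10, an accessory subunit, had the highest difference of the complex at 0.037.

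Complex II, the succinate dehydrogenase of the citric acid cycle, has 4 subunits, all encoded in the nucleus. Its membrane anchor subunit Sdhd, whose promoter is printed above, had 10.45 and 10.26 on the experiment 1 ethanol arrays, against 10.40 and 10.51 on the matching controls. In experiment 2 Sdhd had 10.36, 10.29 and 10.19 on the ethanol arrays, against 10.46, 10.54 and 10.60 on the controls. Thus 1 ethanol array of experiment 1 lay between its controls, and the groups of experiment 2 did not overlap. The Sdhd difference was -0.19 ± 0.06 (SE, 5 ethanol and 5 control arrays; limma unadjusted p = 0.00415, adjusted p = 0.306), a change of -12.6% in level with an interval of -0.32 to -0.07. Its value on every ethanol array was below the mean of the controls of its experiment.

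The other membrane anchor, Sdhc, which together with Sdhd holds the heme and the ubiquinone site, differed in the other direction by 0.07 ± 0.06, and its groups overlapped in both experiments. Sdha, the flavoprotein that oxidises succinate, differed by -0.05 ± 0.04, and Sdhb, the iron-sulphur subunit, by -0.08 ± 0.06. The Sdhb difference was -0.038 without control replicate 2 and -0.053 without ethanol replicate 1 of experiment 2, and that of Sdhc 0.039 without control replicate 3. Sdha and Sdhb had all 5 ethanol arrays below the control mean of their experiment. The 4 proteins form the complex in equal numbers, but the array measures their transcripts.

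In complex III, Cyc1, cytochrome c1, differed by -0.08 ± 0.05, and the core proteins Uqcrc2 and Uqcrc1 by -0.07 ± 0.04 and -0.06 ± 0.04 (SE). Uqcrc2 had 12.30, 12.33 and 12.27 on the experiment 2 ethanol arrays, against 12.45, 12.45 and 12.37 on the matching controls, which did not overlap, while in experiment 1 its ethanol values of 12.31 and 12.41 spanned the controls of 12.39 and 12.33. Uqcrfs1, the Rieske iron-sulphur protein, differed by 0.012. The highest difference of the complex was that of the small subunit Uqcr11, 0.05 ± 0.09, and it rested on 1 array. Uqcr11 had 9.08 and 9.45 on the experiment 1 ethanol arrays, against 9.10 and 8.97 on the matching controls, and its difference was -0.037 without ethanol replicate 2 of that experiment.

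Complex IV holds isoforms made in most tissues beside isoforms known from particular tissues, and the medians of these classes had opposite signs. Of the 10 widely expressed subunits, 8 were lower on the ethanol arrays, with a median of -0.032. Of the 7 tissue isoforms, 2 were lower, with a median of 0.030. The widely expressed genes were mostly in the highest quartile of signal, whereas none of the 7 isoforms was, and over all genes the direction differed by quartile. Cox6a2 and Cox7a1 were in the second-highest quartile, where all genes had a median of -0.052 with 78.0% lower. Cox4i2 and Cox7b2 were in the second-lowest, where all genes had 0.018 with 40.9% lower. Cox6b2, Cox8c and Ndufa4l2 were in the lowest, where all genes had 0.042 with 20.4% lower, and 2 of these 3 were lower. The difference between the isoform classes was not tested.

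Cox4i2, known as the lung and oxygen-regulated isoform of subunit IV, had 7.21 and 7.13 on the experiment 1 ethanol arrays, against 7.03 and 7.08 on the matching controls. In experiment 2 it had 7.19, 7.18 and 7.10 on the ethanol arrays, against 7.004, 7.11 and 7.09 on the controls. Every ethanol array was above the control mean of its experiment, and 1 ethanol array of experiment 2 was below 1 control. The Cox4i2 difference was 0.10 ± 0.04 (SE; adjusted p = 0.379). Its widely expressed partner Cox4i1 differed by -0.06 ± 0.05.

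Among the other isoform pairs, the heart and muscle forms Cox6a2 and Cox7a1 differed by 0.021 and 0.045, and their widely expressed partners Cox6a1 and Cox7a2 by -0.039 and -0.047. The testis forms Cox6b2, Cox7b2 and Cox8c differed by -0.048, 0.030 and 0.037, and the partners Cox6b1, Cox7b and Cox8a by -0.057, -0.064 and 0.003. Ndufa4, long listed in complex I and now placed in complex IV, differed by -0.008, and its paralogue Ndufa4l2 by -0.015. None of these had an unadjusted p under 0.05, and several signs turned with the scaling: Cox7b2 (-0.016), Cox8c (-0.004) and Ndufa4 (0.023) with quantile normalization, and Cox6a2 (-0.007) and Cox8a (-0.024) with median centring.

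In complex V, Atp5pb, subunit b of the stalk that holds the catalytic head in place, had 11.14 and 11.22 on the experiment 1 ethanol arrays, against 11.22 and 11.12 on the matching controls. In experiment 2 Atp5pb had 11.045, 11.08 and 11.10 on the ethanol arrays, against 11.18, 11.33 and 11.32 on the controls. The ethanol arrays of experiment 1 lay between the controls, and those of experiment 2 were all below them. The Atp5pb difference was -0.12 ± 0.05 (SE; adjusted p = 0.396). A second probe set of this gene gave -0.047 ± 0.04 (SE; limma unadjusted p = 0.31). The unadjusted p under 0.05 of Atp5pb thus held only for the probe set with the higher mean.

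Atp5c1, the rotating central shaft of the catalytic head, differed by -0.07 ± 0.04 (adjusted p = 0.490). It was the only subunit gene of the 82 with every ethanol array below every control array in both experiments, a pattern that 2.90% of all genes and 5.32% of those in the highest quartile of signal had. In experiment 1 Atp5c1 had 11.19 and 11.13 on the ethanol arrays, against 11.23 and 11.24 on the controls. In experiment 2 it had 11.10, 11.20 and 11.206 on the ethanol arrays, against 11.209, 11.23 and 11.25 on the controls, so that the nearest arrays were almost level. Atp5md, a small membrane subunit, differed by -0.09 ± 0.04 (adjusted p = 0.404). The alpha and beta subunits of the catalytic head, Atp5a1 and Atp5b, differed by -0.010 and 0.042. Atp5g1, Atp5g2 and Atp5g3, which encode the same mature subunit of the rotor ring, differed by 0.018, -0.027 and -0.019.

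**Figure D3:**
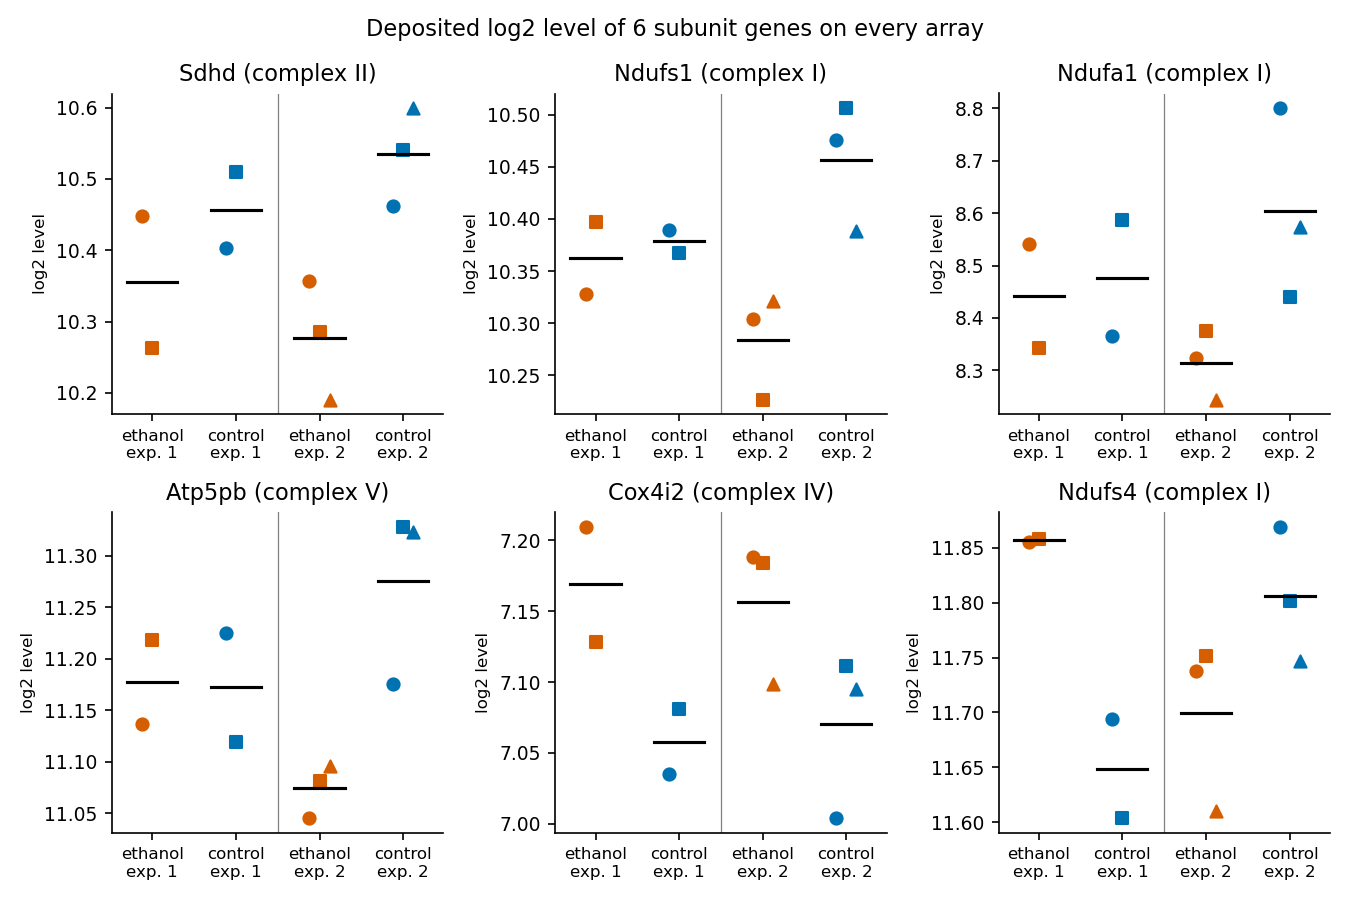
Deposited log2 level of Sdhd, Ndufs1, Ndufa1, Atp5pb, Cox4i2 and Ndufs4 on every array (vertical axes differ between panels and do not start at 0). Circles, squares and triangles are replicates 1, 2 and 3 of ethanol (orange) and control (blue) arrays, and bars are group means. In experiment 2 the ethanol arrays of Sdhd, Ndufs1, Ndufa1 and Atp5pb lie below all controls, and in experiment 1 those of Ndufs4 lie above both controls. Of all 19938 genes, 2334 had the first pattern and 3068 the second, and of the 4985 in the highest quartile of signal 1020 and 326.

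Where a gene had several probe sets they mostly had the same direction. The 82 genes had 107 probe sets in all, and 17 genes had more than 1. In 16 of the 17 the difference had the same sign in every probe set. The exception was Ndufa11, with -0.058 and 0.001, a gene chosen after its values were seen. Atp5l, chosen in the same way, had 6 probe sets that ran from 0.026 to 0.052.

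The subunit genes were also read within each experiment. In experiment 2, 70 of the 82 genes were lower on the ethanol arrays, with a median of -0.060, and of the 58 in the highest quartile of signal 54 were lower (93.1%), with a median of -0.067. Of all genes in that quartile 74.1% were lower, with a median of -0.042. In experiment 1, 40 of the 82 were lower, with a median of 0.001, and of the 58 in the highest quartile 26 were lower (44.8%), with a median of 0.003. Of all genes in that quartile 68.6% were lower, with a median of -0.039. By complex, the medians in experiment 2 and in experiment 1 were -0.070 and 0.001 for complex I, -0.077 and -0.051 for II, -0.057 and -0.018 for III, -0.037 and -0.001 for IV, and -0.063 and 0.023 for V. With each array centred on its median the median of experiment 2 was -0.100, and that of experiment 1 had the other sign, -0.008, with 50 genes lower, and with quantile normalization it was 0.019, with 30 genes lower. The median of experiment 1 was 0.038 without ethanol replicate 1 and -0.020 without ethanol replicate 2. Without control replicate 1 it was 0.046, and without control replicate 2 it was -0.027.

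None of the 82 genes passed adjusted p 0.05 in either experiment (limma), where the percentage of all genes was 0, with smallest adjusted p-values of 0.316 in experiment 2 and 0.439 in experiment 1. At an unadjusted p under 0.05, 7 genes were lower in experiment 2, where 6.36% of all genes and 7.48% of the highest quartile were. They were Ndufa1, Ndufa2, Ndufs1, Ndufab1 (the mitochondrial acyl carrier protein, named after its values were seen), Sdhd, Uqcrc2 and Atp5pb. In experiment 1 Ndufs4 alone was higher at that threshold, which 4.16% of all genes and 0.241% of the highest quartile reached. In that experiment 0 subunit genes were lower at that threshold, where 4.80% of all genes and 7.24% of the highest quartile were. Of the 82 genes, 33 were lower in both experiments, 5 were higher in both, 37 were lower in experiment 2 and higher in experiment 1, and 7 were the other way round. In the same order the shares were 49.9%, 7.24%, 24.2% and 18.7% in the highest quartile of all genes and 32.6%, 25.7%, 22.4% and 19.2% over all genes.

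The difference between the experiments was itself tested. None of the 82 genes passed (limma, smallest adjusted p = 0.665), as for 0% of all genes, and 4 had an unadjusted p under 0.05, where 6.31% of all genes and 5.18% of the highest quartile did. They were Ndufs4, Ndufa2, Atp5pb and, named after its values were seen, Ndufs6, and in all 4 the difference was more negative in experiment 2. Over the 82 genes the median of experiment 2 minus experiment 1 was -0.062 with 61 genes below 0. For the 58 in the highest quartile it was -0.067 with 48 below 0, where all genes of that quartile had -0.005 with 51.7% below 0, and over all genes 52.9% were below 0. Ndufs4, an accessory subunit of the matrix arm whose loss in mice gives a fatal encephalopathy, had 11.74, 11.75 and 11.61 on the experiment 2 ethanol arrays, against 11.87, 11.80 and 11.75 on the matching controls. In experiment 1 Ndufs4 had 11.86 on each of the ethanol arrays, against 11.69 and 11.60 on the controls. Both ethanol arrays of experiment 1 were above its controls, and in experiment 2 the groups overlapped by 1 ethanol and 1 control array. Separation upward in experiment 1 was found for 9 of the 82 genes, 3068 of all 19938 and 326 of the 4985 in the highest quartile. The Ndufs4 difference was -0.11 in experiment 2 and 0.21 ± 0.07 in experiment 1, and -0.31 ± 0.09 between them. Ndufa2, another matrix arm subunit, differed by -0.16 in experiment 2 and 0.10 in experiment 1. Atp5a1 was the only one of the 82 genes with all ethanol arrays above the controls in experiment 1 and below them in experiment 2. That pattern was found for 0.923% of all genes and 65 of the 4985 in the highest quartile, which holds Atp5a1. The Atp5a1 difference between the experiments was -0.11 ± 0.08 (adjusted p = 0.853).

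**Figure D4:**
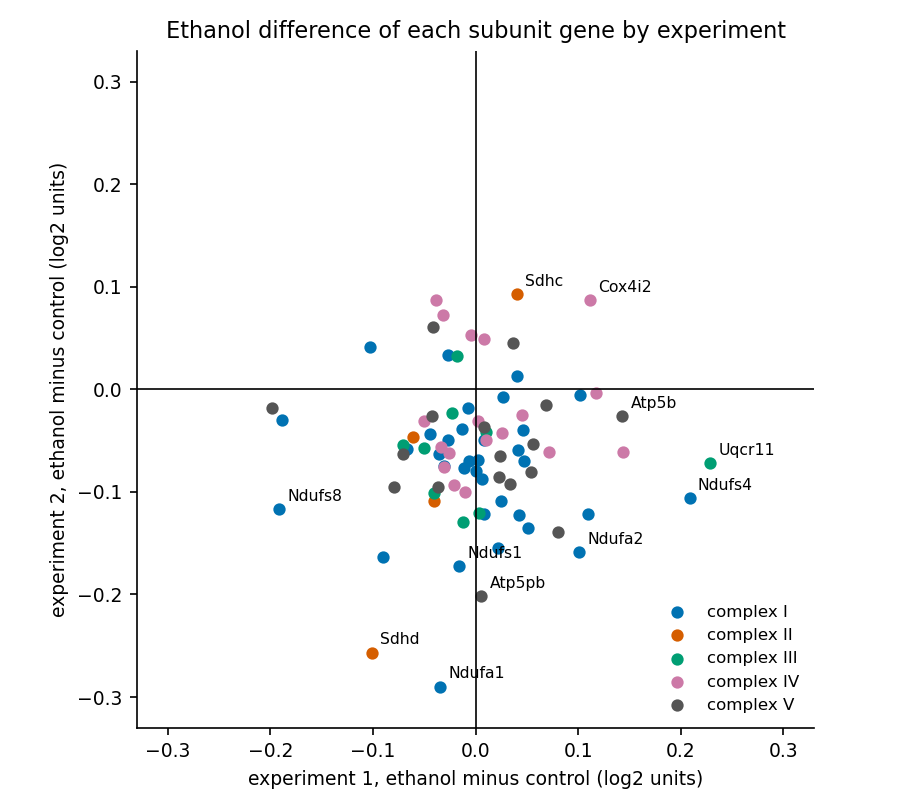
Ethanol minus control difference of the 82 subunit genes in experiment 2 (vertical axis) against experiment 1 (horizontal axis), in log2 units, coloured by complex. Most points lie below the horizontal zero line, with 70 genes lower in experiment 2, while they fall on both sides of the vertical zero line, with 40 genes lower in experiment 1.

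Array by array, the mean over the 82 genes overlapped between the groups in both experiments. Set against the controls of each experiment, it came to -0.073, -0.014 and -0.092 on the experiment 2 ethanol arrays, against 0.030, 0.030 and -0.060 on the matching controls. Control replicate 3 was thus lower than ethanol replicate 2, and without that control the median of experiment 2 was -0.091. In experiment 1 the ethanol arrays had -0.017 and 0.022 and the controls 0.031 and -0.031, so both ethanol arrays lay between the controls. The median over both experiments was -0.023 without control replicate 2 of experiment 2 and -0.025 without control replicate 1. The same mean over all genes in the highest quartile ran from -0.027 to -0.058 on the 5 ethanol arrays and from -0.035 to 0.035 on the 5 controls.

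**Figure D5:**
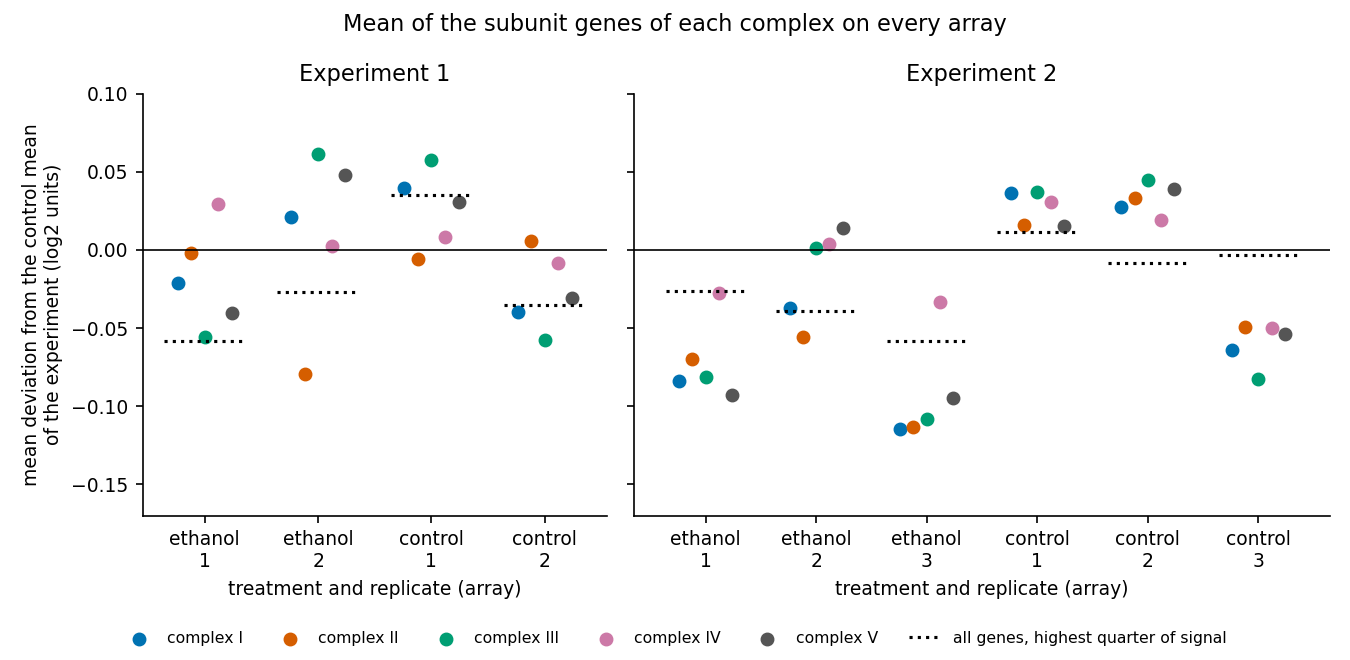
Mean deviation of the genes of each complex from the control mean of the experiment (vertical axis, log2 units) on every ethanol and control array of experiments 1 and 2. Dots are complexes I to V, and the dotted line is the mean of all genes in the highest quartile of signal. The dots of control replicate 3 of experiment 2 lie below 0 with those of ethanol replicates 1 and 3.

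The subunit genes went up and down together across arrays to a varying degree. As a description over 10 arrays, which share group means and the scaling of each array, the median pairwise correlation of deviations from the group means was 0.267 for the 82 genes and 0.298 for the 58 in the highest quartile, where all genes of that quartile had 0.144. It was 0.517 within complex III, 0.339 within complex I and 0.320 within complex V. Within complex IV it was 0.068 and among the 4 genes of complex II it was -0.16. In complex III, where it was highest, the arrays of a group stood well apart, with means of -0.056 and 0.062 for the ethanol arrays of experiment 1 and 0.057 and -0.057 for its controls.

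Other genes of mitochondrial energy metabolism were read from lists, and none of their genes passed adjusted p 0.05. At an unadjusted p under 0.05, 6 assembly factors, 3 genes of the citric acid cycle and 1 carrier were lower, and 0 genes of the other lists, where 7.83% of all genes and 11.3% of the highest quartile were. In that quartile were 12 of the 35 assembly factors, 13 of the 17 cycle genes, 13 of the 14 carriers, 3 of the 14 regulators and all 13 glycolysis genes. Over all genes 54.5% were lower, in the second-highest quartile 78.0% and in the highest 78.7%. Of 35 measured factors that assemble the complexes, 33 were lower on the ethanol arrays, with a median of -0.074, a difference further from 0 than that of the subunits. Cox19, a factor in copper delivery to complex IV, differed by -0.27 ± 0.07 (adjusted p = 0.306), and Tmem126b, an assembly factor of complex I, by -0.17 ± 0.06 (adjusted p = 0.326). Of 17 genes of the citric acid cycle and of pyruvate entry, 15 were lower, with a median of -0.054. Pcx, pyruvate carboxylase, which makes oxaloacetate, differed by -0.14 ± 0.04 (adjusted p = 0.311), and Dld, the shared component of several dehydrogenase complexes, by -0.12 ± 0.04 (adjusted p = 0.335).

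Of 14 electron carriers and inner membrane carriers, 13 were lower, with a median of -0.044, among them the oxoglutarate carrier Slc25a11 (-0.14 ± 0.05) and Etfa of the electron transfer flavoprotein (-0.09 ± 0.06). Of 14 regulators of mitochondrial genes, 13 were lower, with a median of -0.056. Tfb2m, a transcription factor of mitochondrial DNA, differed by -0.12 ± 0.06, and Ppargc1b, a coactivator of nuclear genes for mitochondria, by -0.12 ± 0.06. Glycolysis had 7 of 13 genes lower and a median of -0.006, with -0.043 for Ldhb, a lactate dehydrogenase subunit, and -0.029 for Pfkm, a phosphofructokinase. COX2 and ND3, the 2 subunits encoded in mitochondrial DNA that carried a single symbol, differed by 0.05 ± 0.08 and 0.01 ± 0.09. Such genes have near-identical copies in the nuclear genome, so these values are uncertain. The differences between these lists and the subunits were not tested.

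Markers of other tissues were read on the same arrays, and none passed adjusted p 0.05 (limma). At an unadjusted p under 0.05, 6 pituitary markers were higher, and 7 cerebellar, 4 choroid plexus, 2 astrocyte, 2 oligodendrocyte and 1 microglia marker were lower. Over all genes 7.83% were lower and 4.77% higher at that threshold, and in the highest quartile of signal 11.3% and 0.502%. That quartile held 9 of the 10 cerebellar, 2 of the 8 choroid plexus and 0 of the 7 pituitary markers. All 7 pituitary hormone genes had higher ethanol values (median difference 0.41), and their mean deviation ran from -0.073 to 2.40 on the ethanol arrays and from -0.16 to 0.27 on the controls. The mean level of Gh, Prl and Cga was 10.7 and 9.08 on the experiment 1 ethanol arrays, against 5.66 and 5.91 on the matching controls. In experiment 2 it was 6.91, 11.9 and 6.95 on the ethanol arrays, against 6.87, 6.78 and 7.69 on the controls. All 10 markers of cerebellar granule and Purkinje cells were lower, with a median of -0.20, and their mean deviation was -0.028, -0.015 and -0.32 on the experiment 2 ethanol arrays and -0.14 and -0.49 on those of experiment 1, against -0.063 to 0.096 on the 5 controls. All 8 markers of the choroid plexus were lower, with a median of -0.17, and their mean deviation was -0.21, -0.26 and -0.33 on the experiment 2 ethanol arrays and -0.013 and -0.079 on those of experiment 1, against -0.073 to 0.064 on the 5 controls. The subunit genes had -0.073, -0.014 and -0.092 on the same arrays of experiment 2, and -0.017 and 0.022 in experiment 1.

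The brain label held, since all 9 neuron markers were in the highest quartile of signal, and 6 of them were lower, with a median of -0.029. Their mean deviation ran from -0.044 to 0.004 on the ethanol arrays and from -0.053 to 0.053 on the controls. Markers of astrocytes had 5 of 6 lower with a median of -0.067, of oligodendrocytes 3 of 5 with -0.017, of microglia 4 of 6 with -0.074, and of endothelium and blood 2 of 4 with -0.005. Markers of skeletal and heart muscle, the home of Cox6a2 and Cox7a1, had 5 of 8 lower with a median of -0.014, and none of the 8 was in the highest quartile. Markers of the olfactory mucosa had 2 of 4 lower, with a median of 0.21, and single arrays stood far apart. Their mean deviation was 2.23, -0.62 and -0.64 on the experiment 2 ethanol arrays, against -0.49, 1.26 and -0.76 on the matching controls. In experiment 1 it was 0.13 and -0.10 on the ethanol arrays, against -0.03 and 0.03 on the controls. The part of these tissues in the differences of the subunit genes was not tested.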

How the data were processed

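The authors deposited log2 values for each probe set of Affymetrix whole-transcript arrays, hybridised with material from 200 ng of RNA each, per the labels' protocols. The submitters' processing notes name Partek 6.6. How background was corrected and arrays were normalized is not given in the sources used here. Gene symbols came from the platform annotation (23410 of 35556 probe sets listed), with symbols checked against RefSeq. The 21789 with 1 symbol, of 19938 genes, were tested, and 1621 with several were not.

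Ethanol and control arrays were compared in R 4.3.3 with limma 3.58.1 (lmFit and eBayes with defaults, Benjamini-Hochberg over the 21789 probe sets at 0.05). Over both experiments the model held experiment and treatment. A fit with 4 group means gave each experiment and the difference between them. Counts are over 1 probe set per gene. All signed values are ethanol minus control in log2 units, or experiment 2 minus experiment 1. Intervals are at 95%. Figures were drawn with matplotlib 3.10.9. The fit was tested on simulated data.

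Subunits were assigned to complexes by textbook membership. Within each complex the 3 genes with the smallest p over both experiments and the highest difference were named, as were catalytic and redox subunits, tissue isoforms with their partners, the 2 smallest p between experiments and 2 genes of each pathway list. The members and lists were chosen with earlier results of these data known. Alternatives were quantile normalization, median centring, a filter on dim probe sets, all probe sets, another variance prior, the mean of all probe sets of a gene, array weights, a replicate block and each array left out in turn.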

Additional observations from a re-analysis of the deposited data

Results flagged for a closer look

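Atp5a1, the alpha subunit of the catalytic head of complex V, was singled out because all ethanol arrays were above the controls in experiment 1 and all were below them in experiment 2. It had 11.93, 11.98 and 11.95 on the experiment 2 ethanol arrays, against 12.02, 11.99 and 12.02 on the matching controls. In experiment 1 it had 11.99 and 12.03 on the ethanol arrays, against 11.98 and 11.93 on the matching controls. The nearest ethanol and control arrays were almost level, at 11.982 and 11.985 in experiment 2 and 11.990 and 11.983 in experiment 1. The pattern was found for 184 of all 19938 genes and 65 of the 4985 in the highest quartile of signal. The test of the difference between the experiments gave -0.109 log2 units (limma unadjusted p = 0.180, adjusted p = 0.853).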

How the results depend on the processing

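The 10 arrays limit the precision, and no alternative that was run made any of the 82 genes pass adjusted p 0.05 in limma. The smallest adjusted p of a subunit gene ran from 0.186 to 0.539 over those alternatives, and 5 genes passed an unadjusted p of 0.05. The median of the 82 genes over both experiments was -0.017 with quantile normalization, -0.068 with median centring and -0.058 to -0.023 with an array left out. In experiment 2 it was -0.100 with centring, and -0.091 to -0.045 with an array left out, and in experiment 1 it was -0.027 to 0.046. With quantile normalization the sign was turned for Ndufs7 (0.0049), Cox7b2 (-0.0155), Cox8c (-0.0036), Ndufa4 (0.0234) and ND3 (-0.0382). With centring it was turned for Uqcrfs1 (-0.0155), Cox6a2 (-0.0068), Cox8a (-0.0242), Atp5g1 (-0.0091), Ndufs4 (-0.0078) and ND3 (-0.0172), and with array weights for Ndufs4 (-0.0040) and ND3 (-0.0560). The causes were not tested. With an array left out, differences ran across 0 for Uqcr11 (-0.0373 to 0.1016), Ndufs7 (-0.0371 to 0.0139), Uqcrfs1 (-0.0227 to 0.0320), Atp5a1 (-0.0285 to 0.0035), Cox6a2 (-0.0561 to 0.0782), Cox6b2 (-0.0829 to 0.0139), Cox8a (-0.0142 to 0.0327), Cox8c (-0.0041 to 0.1003), Ndufa4 (-0.0341 to 0.0208), Ndufa4l2 (-0.0363 to 0.0086), Atp5g2 (-0.0556 to 0.0040), Atp5g3 (-0.0365 to 0.0006), Ndufs4 (-0.0234 to 0.0613), COX2 (-0.0195 to 0.1022) and ND3 (-0.0724 to 0.0599). Of 51 named genes these were 15, and another 21 kept their sign but moved by over 1.5 times without some array. The filter on dim probe sets removed 3 of the named genes. The filter, all probe sets and the other prior leave the estimated difference of a gene unchanged by construction, so its sign could not turn. The mean of probe sets, which alters only genes with several, turned no sign. Deviations of equal replicate numbers correlated at -0.052 in experiment 1 and at 0.0062, -0.15 and 0.23 in experiment 2. Unequal numbers in experiment 2 ran from -0.23 to 0.21. With 2 arrays per group the deviations of experiment 1 mirror each other, so every pairing there gives the same size. These values cannot decide whether replicate numbers pair the arrays. The replicate block sets an ethanol beside a control array in every block, so the differences equal those without it by construction. The median of -0.0404 for the 82 genes and the 62 lower genes therefore say nothing about pairing. Only the p-values could change, and with the block 0 genes passed adjusted p 0.05 in limma.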
